A study of Mus musculus with 11 samples.

Results

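The baseline transcriptome of the wild type main olfactory epithelium (MOE), the nasal tissue that holds the olfactory sensory neurons (OSNs), was described from the 3 wild type libraries of a series of 11. These members were chosen by genotype label alone, and no comparison between genotypes was made. The series was built around a deletion of the olfactory Taar genes Taar2 to Taar9, and the libraries used here carry that cluster intact. The labels give wild type pups of the C57BL/6 strain at postnatal days 1 to 2, untreated as far as the labels state, with RNA from the whole MOE and polyA-selected directional libraries. The methods of the study describe the line at an older age and on a background mixed with 129, and the files do not decide between the descriptions. Both sexes were used in the study, while the sex, litter and date of each library are not in the labels. Nothing in the labels says whether the 3 samples came from 1 pup each or from pooled pups, so the spread between them may be partly technical.

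The MOE is a layered tissue. Basal cells give rise to neuronal precursors, immature OSNs and then mature OSNs, each of which chooses a single odorant receptor (OR) gene and signals through a cyclic AMP cascade. Sustentacular cells surround the neurons and carry enzymes that modify odorants, Bowman's glands and nearby nasal glands secrete mucus proteins, and respiratory epithelium, glia, vessels, connective tissue, cartilage and bone lie beside or beneath. A dissection of the whole tissue can hold all of these, and in bulk RNA fewer cells of a type and less RNA per cell cannot be told apart.

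The libraries held 10449984, 12220228 and 11894072 gene counts in replicates 1, 2 and 3, in which order values are given throughout. Replicate 3 stood apart from the other two. Over the 15904 genes with at least 10 counts in at least 2 libraries, the biological coefficient of variation (the spread beyond counting error, from edgeR) was 0.118 between replicates 1 and 2, 0.284 between 1 and 3, and 0.279 between 2 and 3. It was 0.251 over all 3 libraries. As a measure of spread per gene, the highest library was divided by the lowest on the scale of counts divided by the TMM-scaled library total (CPM). This ratio was over 2 for 2652 of the 15904 genes (16.7%), a background share against which the counts for each group of genes are set below. The share fell as counts rose. It was 43.1% for genes with a mean under 30 counts, 11.7% at 100 to 1000 and 8.48% at 1000 or more. With only 2 libraries the ratio has fewer values to span. Without replicate 3 it was over 2 for 266 of 15409 genes (1.73%). Without replicate 1 it was over 2 for 1534 genes (9.87%), and without replicate 2 for 1574 (10.2%). Of the 2652 genes, 1497 were highest in replicate 3. Over all 15904 genes, replicates 1, 2 and 3 were the highest library for 29.8, 27.9 and 42.3% and the lowest for 29.9, 27.7 and 42.5%, the background for counts of genes highest or lowest in a library.

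**Figure D1:**
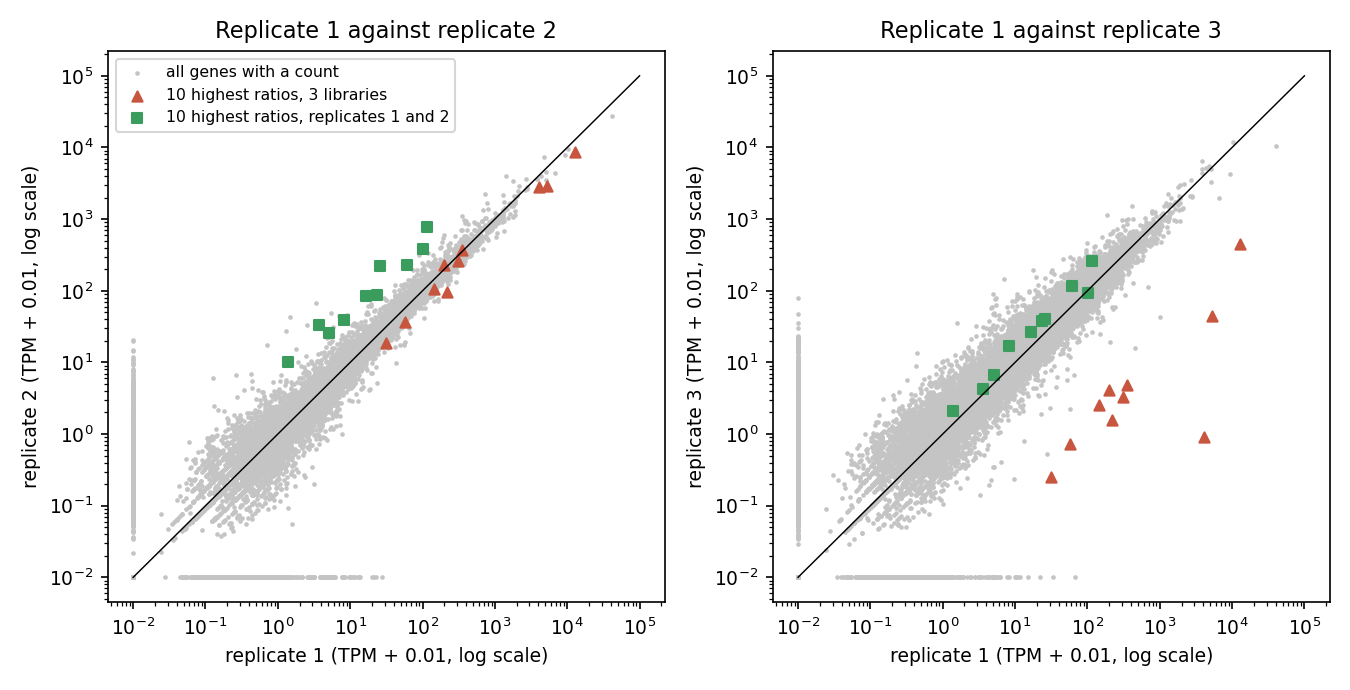
Level per length (TPM, counts per kilobase of exon on a common total, with a small constant added; both axes are log scales) of every gene with a count in replicate 1 against replicate 2 (left) and against replicate 3 (right). Among genes with a mean of at least 100 counts, triangles are the 10 with the highest ratio over 3 libraries, all of which fall below the diagonal on the right, and squares are the 10 with the highest ratio between replicates 1 and 2, all above the diagonal on the left.

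The tissue label was first checked against defining markers. Levels are given as TPM, the count per kilobase of annotated exon scaled to the same total in each library, so that genes of different length can be set side by side. Of 24003 genes with a length, 15420 (64.2%) reached 1 TPM in all 3 libraries, and these expressed genes had a median mean level of 27.5 TPM. Omp, the marker protein of mature OSNs, stood at 1291, 1094 and 668 TPM and ranked 64 among all genes. Cyp2g1, an enzyme of sustentacular cells, stood at 1912, 1152 and 1958 TPM. Both were among the abundant transcripts in every library, while most listed markers of the olfactory bulb and brain were low (below).

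Ranks 1 to 4 by mean level were held by genes of secreted proteins, Bpifb9b, Bpifa1, Lcn11 and Bpifb5. Of the 25 highest genes, 4 belonged to the BPI-fold family, secreted lipid-binding proteins of the airway and nasal mucosa. Bpifb9b ranked first, at 41074, 27149 and 10321 TPM, a mean of 26181 ± 15399 TPM (SD, n = 3). It lies at chr2:154307227-154320646 (mm10, plus strand), in a cluster of BPI-fold genes. Replicate 1 was highest and replicate 3 lowest, with a ratio of 4.34.

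Bpifa1 (also known as SPLUNC1), at chr2:154142880-154149219, held 10149.9, 9558 and 12049 TPM. It was the highest gene of replicate 3, and its libraries differed little, with a ratio of 1.19. Bpifb5 stood at 9282, 7845 and 4324 TPM and Bpifb9a at 6692, 4417 and 1973 TPM. Both were lowest in replicate 3. Bpifb9a and Bpifb9b are near-identical copies, and only 28.6% of the 50-base stretches of Bpifb9b and 36.6% of those of Bpifb9a occurred in no other annotated gene, so the split of counts between them is uncertain.

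Lipocalins and gland products followed. Lcn11, a lipocalin at chr2:25777017-25780279, held 12882, 8772 and 443 TPM, high in replicates 1 and 2 and far lower in replicate 3. Obp2a, an odorant-binding lipocalin in the same chromosome region (chr2:25700043-25703326), held 4077, 2769 and 0.892 TPM. The gene 5430401F13Rik (chr6:131486400-131553763) held 5209, 2861 and 44.9 TPM, in the same order of libraries, but 20.8% of its stretches occurred in no other gene. Wfdc18, a small protein with a whey acidic protein domain, held 5099, 3485 and 3271 TPM and had no such drop.

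Sustentacular enzymes came next among the abundant genes. Cbr2, a carbonyl reductase, ranked 8 with 4313, 4049 and 5106 TPM, and Cyp2a5, a cytochrome P450 that oxidises coumarin and other odorants, ranked 12 with 3797, 2624 and 4358 TPM. Both held their level in all 3 libraries. For Cyp2a5, 62.97% of stretches were found in no other gene, the closest being Cyp2a4.

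The rest of the 25 included genes of translation, matrix and cytoskeleton. H19, an imprinted noncoding RNA abundant in fetal and newborn tissue, held 4722, 7467 and 5491 TPM. The translation factors Eef1a1 (5105, 4534 and 4948 TPM) and Eef2 (2792, 2666 and 2125 TPM), the chaperone Hsp90ab1 (2789, 2802 and 2039 TPM) and the ribosomal protein genes Rplp1 (3869, 3655 and 4960.1 TPM) and Rpl8 (1884, 1815 and 2052 TPM) varied by less than 2-fold. The matrix genes were Col2a1, the main collagen of cartilage (1420.2, 3969 and 2001 TPM), Sparc, a matrix protein of bone and connective tissue (1791, 3429.6 and 1807 TPM), and Mgp, an inhibitor of calcification (2142, 2911 and 3051 TPM). Col2a1 and Sparc were highest in replicate 2. The cytoskeletal genes were Tuba1a (2638, 2583 and 2119.8 TPM), Actb (2119, 2469 and 1423 TPM) and Tmsb4x (1796, 1505 and 2804 TPM). E030002O03Rik held 2704, 3598 and 3545 TPM. The levels of Mir682 (3791, 3654 and 6452 TPM) and of Rpl14-ps1, a pseudogene (1898, 1845 and 3039.98 TPM), are uncertain. The first is annotated over 96 bases, which inflates a level per length, and 0% of its stretches and 21.7% of those of Rpl14-ps1 were found in no other gene. Of the 25 genes, 7 had under 50% of stretches to themselves, among them also Rplp1 and Tuba1a, whose close copies are pseudogenes and other tubulins.

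**Figure D2:**
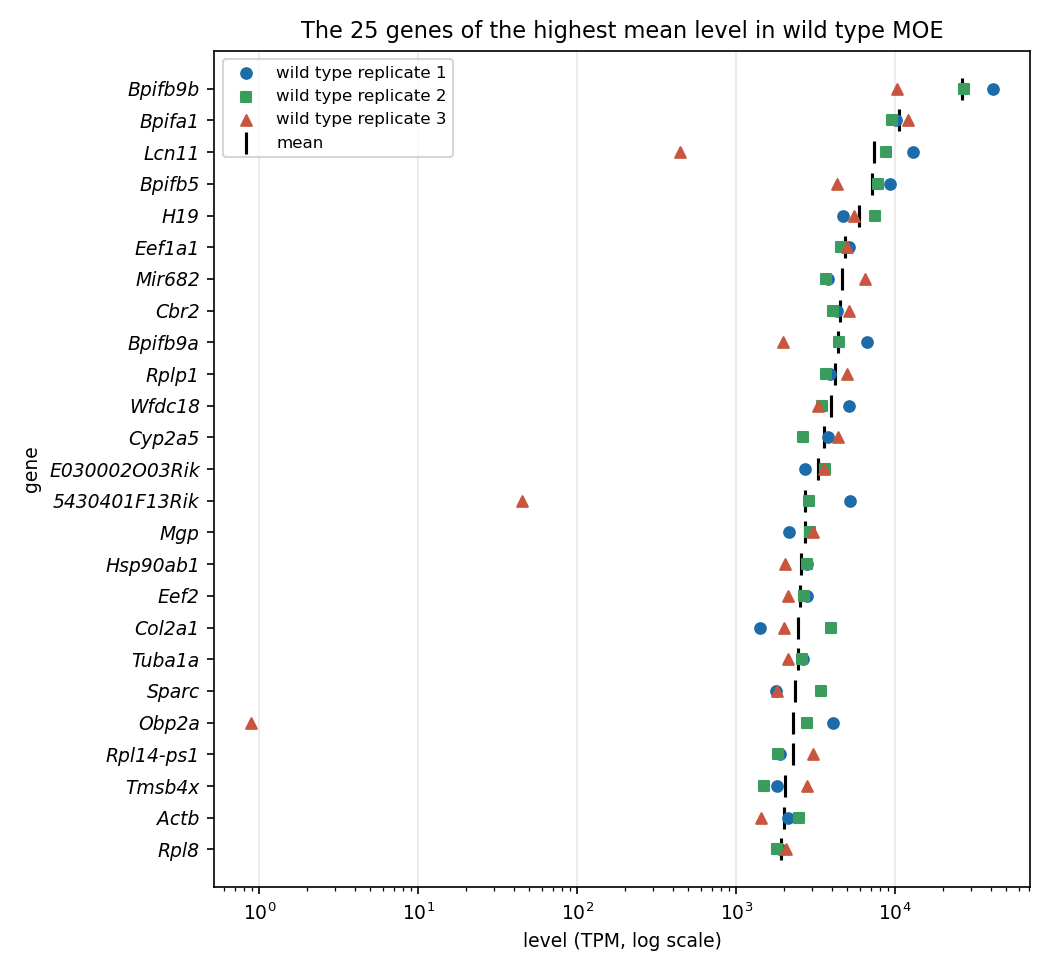
Level of the 25 genes with the highest mean (TPM, log axis) in wild type replicates 1 (circles), 2 (squares) and 3 (triangles), with the mean as a vertical tick. Most genes lie within a few-fold in the 3 libraries, whereas Lcn11, 5430401F13Rik and Obp2a fall to 443, 44.9 and 0.892 TPM in replicate 3.

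The ranking was therefore stable for part of the list only. Of the 25 genes, 16 were among the 25 highest of every library and 8 had a ratio over 2. The 25 highest genes of each library, not the same set in each, took 14.5, 12.4 and 9.59% of all TPM. The highest gene of each library took 4.11, 2.71 and 1.205%. It was Bpifb9b in replicates 1 and 2 and Bpifa1 in replicate 3. Expression was otherwise spread over many genes, since 1039, 1145 and 1384 genes were needed for 50% of TPM. Of the 25 genes with the highest mean, 1 was above the next gene in rank in all 3 libraries. For the other pairs of neighbours the order changed with the library.

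Gene families were summed to find those that took the largest share of counts. Of the 29 families, 1 (mitochondrially encoded genes) was not analysed here. The BPI-fold family (14 genes) took 3.77, 2.56 and 1.43%, a mean of 2.58 ± 1.17% (SD, n = 3), with 4 of 8 tested genes over 2-fold. Collagens (44 genes) took 1.47, 3.28 and 1.76%, and were highest in replicate 2. For 32 of the 42 collagen genes tested replicate 2 was the highest library, and 24 of 42 were over 2-fold, against the 16.7% of all genes.

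Solute carriers (373 genes) and Zfp zinc finger genes (368) are large families of low to moderate level. They took 1.39 ± 0.0674% (SD, n = 3) and 1.12 ± 0.147% (SD, n = 3). Ribosomal protein genes took 0.889, 0.758 and 1.03%. For 63 of the 79 ribosomal protein genes tested the highest library was replicate 3, against 42.3% of all genes, and 25 of 79 were over 2-fold.

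Families of odorant-modifying enzymes took smaller shares. Cytochrome P450 genes took 0.505, 0.334 and 0.449%, led by Cyp2a5, Cyp2g1 and Cyp2f2 (1923, 1303 and 942 TPM). Glutathione S-transferases, which conjugate reactive compounds, took 0.151, 0.145 and 0.108% and were led by Gstm1 (1857, 2129 and 1329.6 TPM). Aldehyde dehydrogenases took 0.139 ± 0.0176% (SD, n = 3), sulfotransferases 0.0598 ± 0.0144% (SD, n = 3) and UDP-glucuronosyltransferases 0.0527 ± 0.013003% (SD, n = 3). These families were present in all 3 libraries at shares that differed by less than 2-fold.

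The family of odorant-binding proteins, lipocalins and major urinary proteins had the highest ratio between libraries of all families, 26.8. It took 0.337, 0.221 and 0.0126%, lowest in replicate 3, and 8 of its 8 tested genes were over 2-fold. Secretoglobins, small secreted proteins of mucosa, took 0.0483, 0.0344 and 0.0196%, led by Scgb1c1 (1534, 1050.1 and 1566 TPM), whose ratio was 1.504. Tubulins, the subunits of microtubules, took 0.423, 0.447 and 0.297% and keratins, the filaments of epithelia, 0.138, 0.106 and 0.0731%. The keratins were led by Krt18 (1284, 1049 and 980.4 TPM) and Krt8 (481, 403 and 255 TPM), a pair of simple epithelia. S100 genes took 0.119, 0.0935 and 0.0959%, led by S100a5 (1769, 1087 and 1552 TPM), a calcium-binding protein of OSNs.

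For the marker lists, members were drawn from textbook knowledge of each cell type, with earlier results of these data known. Counts over the lists are therefore descriptive. Of 30 cell type lists, 14 had a median above the median expressed gene in every library and 13 below it in every library. The medians describe RNA levels and are not proportions of cells.

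**Figure D3:**
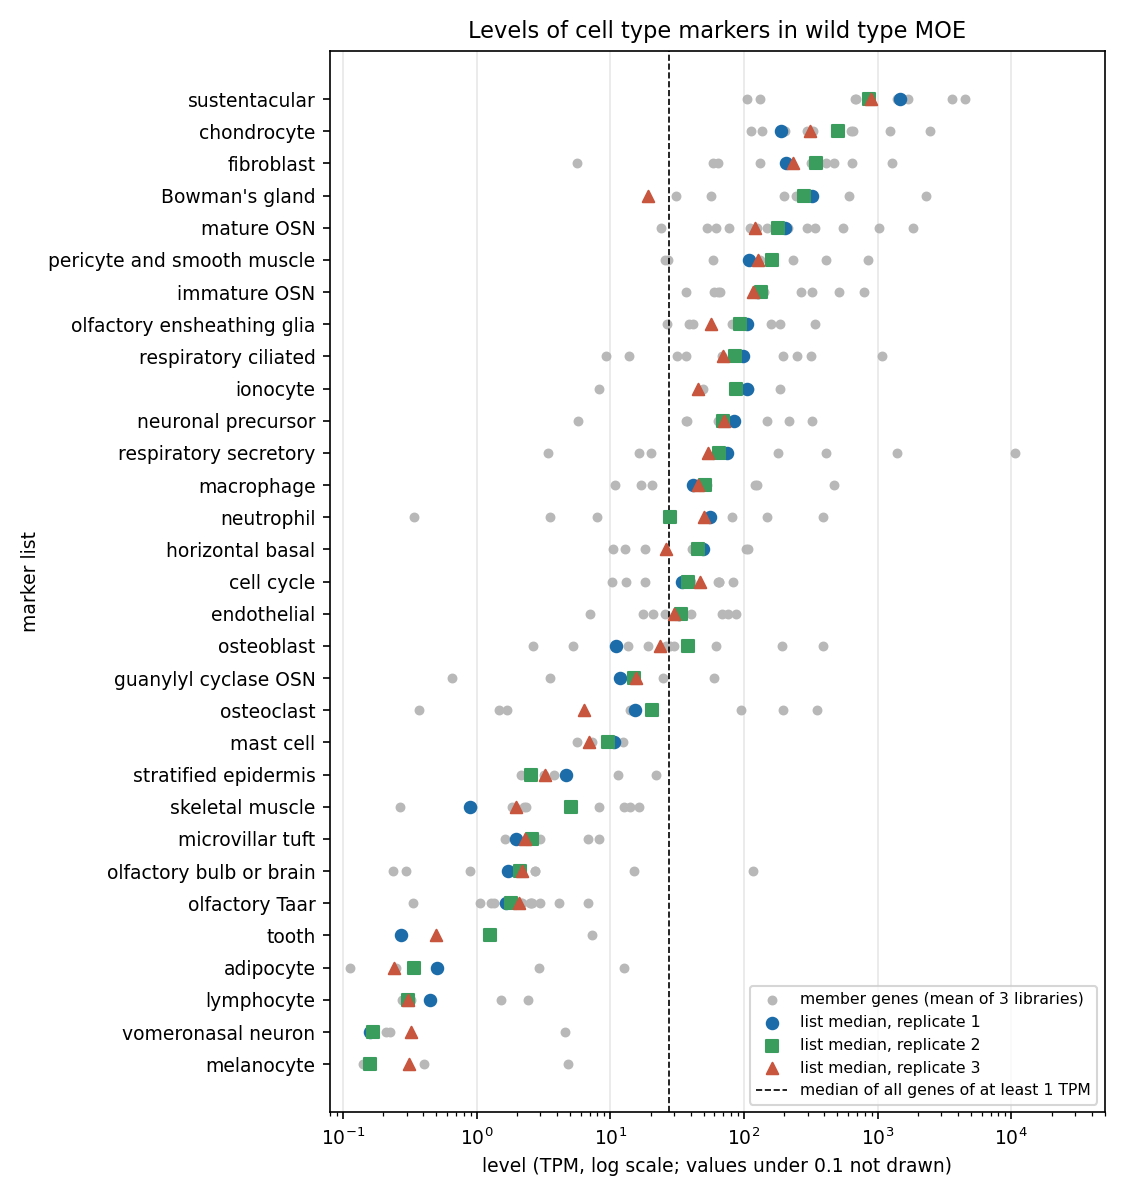
Level (TPM, log axis) of cell type marker lists. Grey points are the means of member genes, coloured symbols the list median in each library (circles replicate 1, squares replicate 2, triangles replicate 3) and the dashed line the median of all expressed genes, 27.5 TPM. The sustentacular list is highest, and the Bowman's gland median is lower in replicate 3 than in the other libraries.

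The median of the mature OSN markers lay above that of all expressed genes. The 14 genes of the list had a median of 201, 179 and 121 TPM, a mean of 167 ± 41.4 TPM (SD, n = 3), and all 14 reached 1 TPM in every library. The most abundant was Gfy, a protein needed for localisation of signalling molecules in the cilia, with 2043, 2106 and 1387 TPM. Of the genes of the transduction cascade, the G protein subunit Gng13 stood at 622, 476 and 566 TPM and Gnal at 174, 153 and 120.2 TPM. The adenylyl cyclase Adcy3 stood at 93.997, 80.1 and 59.3 TPM, and the channel subunit genes Cnga2, Cnga4 and Cngb1 at 244, 219 and 176 TPM, 72.6, 65.9 and 45.8 TPM and 30.6, 25.02 and 15.8 TPM. The receptor transporters Rtp1 (377, 368 and 266 TPM) and Rtp2 (229, 204 and 122 TPM), which bring ORs to the membrane, and Stoml3 (371, 295 and 224 TPM) were of intermediate level. The 3 channel subunits were highest in replicate 1 and lowest in replicate 3. Over the list, 13 of 14 genes were highest in replicate 1 and 13 of 14 lowest in replicate 3. Between libraries 3 of 14 were over 2-fold, against 16.7% of all genes and 8.48% of genes with a mean of at least 1000 counts. Most of the 14 lay in that range of counts.

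Immature OSN markers differed by less than 2-fold between libraries. The list of 11 had a median of 128, 134 and 117 TPM, and 0 of 11 were over 2-fold, while 8 of 11 were lowest in replicate 3. Tubb3, the neuronal tubulin, held 914, 919 and 536 TPM, Gap43, a growth cone protein, held 523, 580.1 and 451 TPM, and Stmn2, a regulator of axonal microtubules, held 281, 291 and 236 TPM. The mature marker Omp exceeded Gap43 in all 3 libraries.

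Neuronal precursor genes differed in how even they were. The transcription factor Neurog1, which acts in precursors, stood at 50.8, 40.01 and 21.2 TPM, and Nhlh1, another such factor, at 165, 193 and 85.5 TPM. Both were lowest in replicate 3, at ratios of 2.598 and 2.39. Neurod1, a factor of postmitotic precursors, was even at 85.9, 85.5 and 83.6 TPM. The highest of the list were Hes6 (336, 291 and 348 TPM) and Insm1 (232, 245 and 180.2 TPM). Lgr5, a marker of globose basal cells, was low at 4.89, 5.23 and 7.05 TPM. Cell cycle genes had list medians of 34.6, 38.4 and 46.7 TPM with 0 of 10 over 2-fold, and Mki67 stood at 72.5, 90.3 and 86.6 TPM.

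Horizontal basal cell markers were lower in replicate 3. Krt5, the keratin of these reserve stem cells, held 139, 123 and 49.5 TPM, Krt14 65.2, 64.1 and 22.3 TPM and Krt15 162, 116 and 42.6 TPM. The ratios of these keratins were 3.04, 3.18 and 4.13. Trp63, the transcription factor of these cells, held 11.99, 11.6 and 7.83 TPM at a ratio of 1.67. Of the list, 3 of 8 were over 2-fold, and 7 of 8 were lowest in replicate 3.

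Sustentacular markers formed the list with the highest median, 1075 ± 342 TPM (SD, n = 3). Summed over 8 genes the list held 13905, 10392 and 13950.4 TPM. Beside Cbr2, Cyp2a5 and Cyp2g1, the sulfotransferase Sult1c1 stood at 1026, 562 and 484 TPM and Cyp2f2 as given above. These 2 were lowest in replicate 3 and over 2-fold, which the other 6 were not. Ugt2a1, which conjugates odorants with glucuronic acid, stood at 674, 498 and 856 TPM, although 2.98% of its stretches occurred in no other gene since it shares exons with Ugt2a2.

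The Bowman's gland list included Obp2a, which had the highest ratio between libraries of all genes with a mean of at least 100 counts. The 6 listed genes summed to 5657, 3932 and 682 TPM, a ratio of 8.29 between the highest and the lowest, and 4794 TPM on average without replicate 3. Obp2a made up most of this difference, since the other 5 genes summed to 1579, 1163 and 681 TPM, a ratio of 2.32. Obp2a had 8711, 6567 and 2 counts. The ratio of replicate 1 to replicate 3 was 4982, with a 95% exact counting interval of 1379 to 41148. Obp1a had 776, 892 and 11 counts, a ratio of 80.7, and Obp2b had 143, 60 and 0 counts. Against the floor of 3 counts per library, Obp2b was at least 54.5-fold higher in replicate 1 than in replicate 3. These intervals cover counting error only. The other members changed less. Of the 6, 5 were over 2-fold and lowest in replicate 3, the exception being Gpx6, of which replicates 2 and 3 held nearly the same level. Aqp5, a water channel of secretory cells, held 293, 197 and 110.4 TPM, Sox9, a transcription factor of gland and duct cells, 69.6, 66.8 and 33.7 TPM, and Gpx6, an olfactory glutathione peroxidase, 792, 504 and 532 TPM.

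The ranking over all genes was led by genes that were low in replicate 3. Ranked by ratio among genes with a mean of at least 100 counts, the first 10 were Obp2a, Klk1, 5430401F13Rik, A4gnt, Scgb1b27, Csn3, Obp1a, Apol10a, Gm14744 and Lcn11, and 10 of 10 were lowest in replicate 3, as were 17 of the first 20. Klk1, a tissue kallikrein of glands, had 668, 331 and 5 counts. Scgb1b27, a secretoglobin of glands and their secretions, had 897, 842 and 10 counts. Csn3, a casein, had 683, 483 and 9 counts, and A4gnt, which caps gland mucin sugars, had 248, 164 and 2 counts. In these 4 genes replicates 1 and 2 were high and replicate 3 held at most 10 counts. Apol10a had 1266, 1023 and 23 counts and Gm14744 had 451, 591 and 10 counts, and 27.3% of the stretches of the latter occurred in no other gene. Scgb1c1 and Bpifa1, secreted proteins of the respiratory list, did not share this drop.

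The start regions of 3 of these genes are shown beside that of Bpifa1, which held its level. The 3 were taken from the 4 genes with the letters marked below, so they do not stand for all 10. The windows run from 250 bases before to 50 after the start in RefSeq (GRCm38.p6, 5′ to 3′ in the direction of the gene), and capitals mark TATAAA, searched on both strands.
Obp2a (chr2:25699824-25700123, plus strand): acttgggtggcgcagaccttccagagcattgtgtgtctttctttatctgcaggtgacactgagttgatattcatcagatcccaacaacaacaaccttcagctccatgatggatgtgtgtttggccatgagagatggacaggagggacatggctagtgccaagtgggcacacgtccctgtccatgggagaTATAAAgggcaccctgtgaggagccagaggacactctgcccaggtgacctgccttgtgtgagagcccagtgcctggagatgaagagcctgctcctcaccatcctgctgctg
5430401F13Rik (chr6:131543512-131543811, plus strand): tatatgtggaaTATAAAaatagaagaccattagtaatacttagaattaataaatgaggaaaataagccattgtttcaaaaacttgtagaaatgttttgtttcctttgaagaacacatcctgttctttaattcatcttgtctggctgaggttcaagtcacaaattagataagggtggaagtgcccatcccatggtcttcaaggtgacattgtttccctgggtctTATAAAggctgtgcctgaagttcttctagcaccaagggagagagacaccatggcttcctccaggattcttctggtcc
Obp1a (chrX:78091325-78091624, minus strand): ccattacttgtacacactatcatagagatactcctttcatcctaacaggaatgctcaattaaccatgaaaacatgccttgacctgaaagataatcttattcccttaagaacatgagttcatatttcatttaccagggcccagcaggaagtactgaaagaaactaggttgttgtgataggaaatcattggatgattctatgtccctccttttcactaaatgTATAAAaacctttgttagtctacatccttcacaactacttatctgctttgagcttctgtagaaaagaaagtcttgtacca
Bpifa1 (chr2:154142630-154142929, plus strand): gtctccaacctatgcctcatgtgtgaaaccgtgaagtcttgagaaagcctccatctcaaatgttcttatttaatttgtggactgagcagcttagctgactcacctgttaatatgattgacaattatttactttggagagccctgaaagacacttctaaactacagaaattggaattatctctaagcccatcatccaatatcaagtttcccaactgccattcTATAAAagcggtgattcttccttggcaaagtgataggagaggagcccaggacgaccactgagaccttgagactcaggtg
Of the 10 genes, 9 had a window in the table, and 4 of these 9 held TATAAA on either strand, against 13.6% of 32851 promoter windows of the same length. Scgb1b27, not shown, held it 42 bases after the start. The other 5 did not hold it. Of the 25 highest genes 15 had a window and 8 of these held it, as did 4 of 7 windows of sustentacular genes, 0 of 11 of mature OSN genes and 0 of 8 of chondrocyte genes. Bpifa1, whose level held, carried the same letters in the window shown. A match, or its absence, describes these letters in these windows only.

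Respiratory epithelium was represented by its secretory and ciliated cells. Of the secretory list, Bpifa1 was highest and Agr2, a chaperone of mucus cells, held 453, 303 and 471 TPM. Tff2, a trefoil peptide, held 164, 141 and 237 TPM and Muc5b, the main airway mucin, held 75.2, 65.1 and 53.98 TPM. Muc5ac was low (1.85, 5.37 and 3.02 TPM), and Scgb1a1, the club cell secretoglobin, was at 0 counts in all 3 libraries, below the floor of 3 counts in each. Dmbt1, a mucosal defence protein, held 24.03, 19.3 and 5.64 TPM at a ratio of 4.63. This member shared the drop of the gland genes in replicate 3, whereas the list sum did not (12426, 11159 and 14407 TPM).

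Ciliated cell markers reached a median of 98.4, 85.4 and 69.3 TPM. Foxj1, which drives the program of motile cilia, held 396, 329 and 218 TPM, Sec14l3 1149.7, 1024 and 1039.8 TPM and Rsph1, a radial spoke protein, 235, 207 and 144 TPM. Dnah5, an outer arm dynein, stood at 40.7, 35.3 and 18.2 TPM. Of the list, 2 of 10 were over 2-fold and 7 of 10 were lowest in replicate 3. Axonemal dynein heavy chains took 0.05196 ± 0.00795% (SD, n = 3) of counts.

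Other epithelial types had markers of unequal level. Microvillar tuft markers Trpm5, a cation channel (6.37, 10.7 and 7.67 TPM), and Pou2f3, the factor that specifies these cells (7.67, 7.52 and 5.37 TPM), were present, while Chat (0, 2 and 1 counts) and Gnat3 (0, 1 and 0 counts) were at or under the floor of 3 counts in every library. The ionocyte factors Ascl3 (139, 116 and 71.6 TPM) and Foxi1 (70.9, 56.8 and 19.6 TPM) were higher, with ratios of 2.12 and 3.94, both lowest in replicate 3. Cftr, the chloride channel of such cells, was even at 8.34, 8.04 and 8.33 TPM, and Coch, the most abundant of the 4 listed ionocyte genes, was highest in replicate 3 at 188, 144 and 222 TPM. The guanylyl cyclase Gucy2d, of the OSNs that use cyclic GMP, stood at 2.801, 3.82 and 4.04 TPM.

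**Figure D4:**
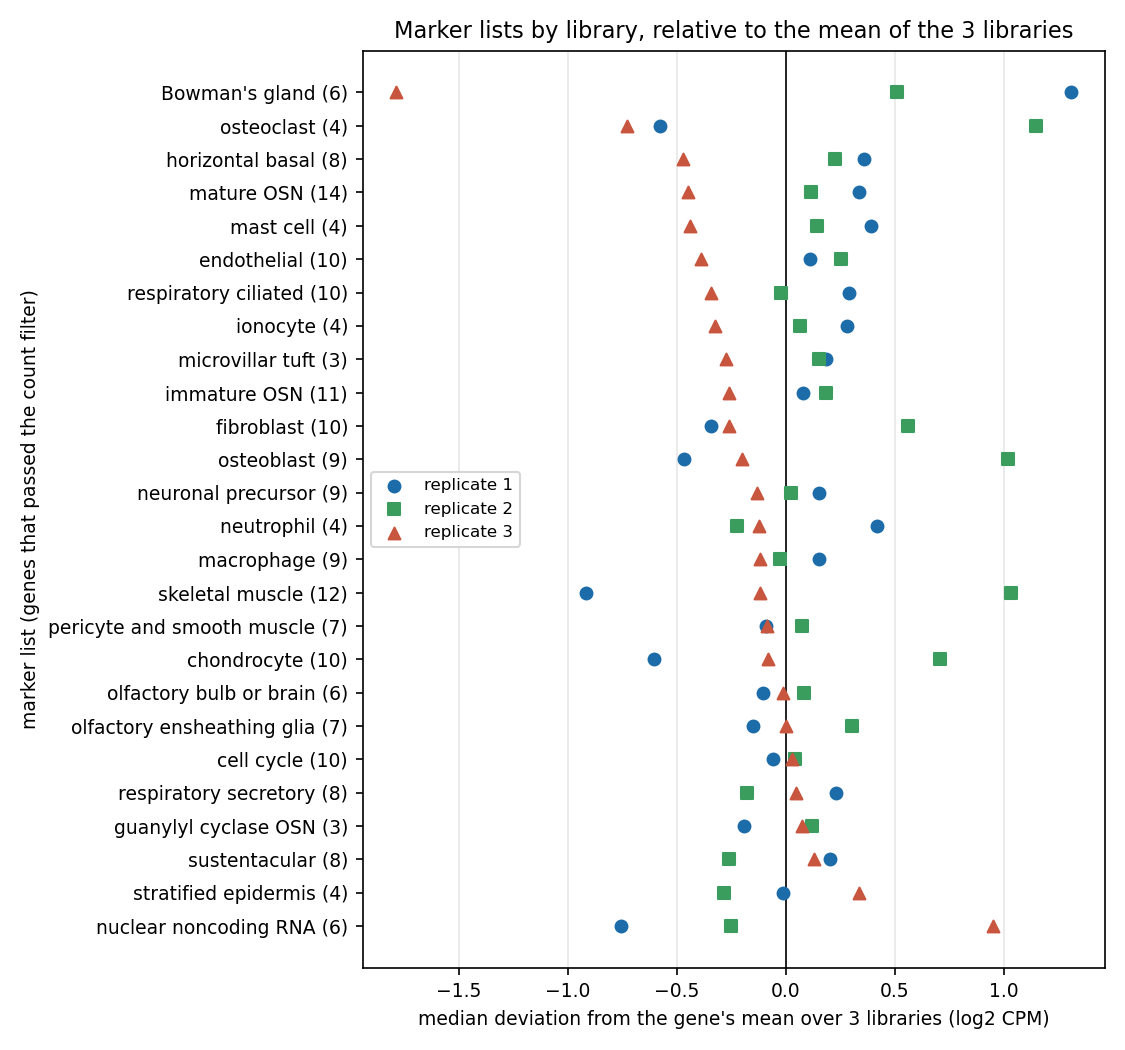
For each marker list, the median over its tested genes of the deviation from the gene's own mean (log2 CPM; the number of genes is in brackets), in replicates 1 (circles), 2 (squares) and 3 (triangles). Bowman's gland is lowest in replicate 3 (-1.79) and skeletal muscle, osteoclast, osteoblast and chondrocyte are highest in replicate 2 (1.03, 1.14, 1.02 and 0.71).

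Connective tissue, cartilage, bone and muscle differed mainly in replicate 2. The 10 chondrocyte genes with a level summed to 3768, 9646 and 5714 TPM, and all 10 were over 2-fold and highest in replicate 2. Beside Col2a1, the cartilage proteoglycan Acan held 193, 541 and 252 TPM, Col9a2 771, 1698 and 1229 TPM and Matn1, a cartilage matrix protein, 90.7, 315 and 206 TPM. Replicate 1 was lowest and replicate 3 lay between, at ratios of 2.72, 2.14 and 3.37. Cnmd, the other listed gene, had no level here.

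Bone genes were mostly highest in replicate 2, for 8 of 9 tested osteoblast genes and 4 of 4 tested osteoclast genes, while the lowest library was replicate 1 for some and replicate 3 for others. Osteoblast genes summed to 342, 1431 and 529 TPM with 6 of 9 over 2-fold. The bone matrix genes Ibsp and Spp1 held 119.6, 341 and 119 TPM and 116, 784 and 263 TPM. Bglap (osteocalcin), at 3.38, 67.5 and 18.8 TPM, shares most of its sequence with Bglap2, so the pair is uncertain. Osteoclast genes summed to 344, 1238 and 399 TPM. Acp5 and Ctsk, enzymes of bone resorption, held 26.2, 219 and 39.9 TPM and 200.4, 602 and 258 TPM. Calcr, Ocstamp and Dcstamp did not reach 1 TPM in all libraries.

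Fibroblast genes summed to 2331, 5643 and 2765 TPM, with 5 of 10 over 2-fold. Col1a1, Col1a2 and Col3a1, the main fibrillar collagens, were highest in replicate 2, at 729, 2226 and 882 TPM for Col1a1. Dcn and Pdgfra, a small proteoglycan and a growth factor receptor of fibroblasts, varied less, at 187, 256 and 164 TPM and 50.3, 72.9 and 53.8 TPM. Dpt was low (6.46, 4.91 and 5.58 TPM).

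Skeletal muscle genes summed to 19.2, 129.7 and 49.3 TPM, a ratio of 6.76, with 12 of 12 over 2-fold and 11 of 12 highest in replicate 2. Acta1, the skeletal actin, had 11, 162 and 62 counts and Myh8, the perinatal myosin, had 4, 226 and 22 counts. Tooth enamel genes were near 0 in replicate 1, and Amelx had 2, 56 and 11 counts. Over the chondrocyte, osteoblast, osteoclast, fibroblast and skeletal muscle lists, 42 of 45 tested genes were highest in replicate 2. Of the 45, 37 (82.2%) were over 2-fold, against 16.7% of all genes. These 5 lists were pooled with their values known, so the shares describe them and are no independent evidence. The pericyte and smooth muscle list was not pooled. Of its 7 genes, 3 were highest in replicate 2 and 1 was over 2-fold. The part of the 5 lists in other differences between libraries was not tested.

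Without replicate 3, bone genes were among those that differed most. Among genes with a mean of at least 100 counts, the highest ratios between replicates 1 and 2 belonged to Dmp1 (8.59), Acp5 (8.09), Col22a1 (7.08), Spp1 (6.58) and Mmp13 (4.95), and 10 of the first 10 were higher in replicate 2. Dmp1, a protein of osteocytes, stood at 2.76 and 24.1 CPM in replicates 1 and 2.

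The endothelial list had medians of 32.7, 33.9 and 29.7 TPM, with 1 of 10 over 2-fold, and Cdh5, the endothelial cadherin, held 84.9, 91.7 and 49.7 TPM. Of the 10 endothelial genes, 8 were lowest in replicate 3. Rgs5 held 263, 212 and 219 TPM and Acta2, the smooth muscle actin, 759, 1022 and 766 TPM. Of the 7 pericyte and smooth muscle genes, 1 was over 2-fold, Cspg4 at 14.3, 36.8 and 29.5 TPM. Both shares lay between the 8.48% of genes with a mean of at least 1000 counts and the 16.7% of all genes.

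Olfactory ensheathing glia wrap the axons of OSNs on their way to the bulb. Of their markers, Apod held 350.1, 437 and 226 TPM, S100b 143, 224 and 192 TPM and Fabp7 151, 146 and 181 TPM. Sox10, the glial transcription factor, held 106, 94.1 and 42.5 TPM and was lowest in replicate 3. Both Sox10 and Apod were over 2-fold.

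Immune markers included those of macrophages, with medians of 41.6, 51.01 and 45.7 TPM, and of neutrophils, with medians of 55.9, 27.8 and 50.005 TPM. The order of these lists changed with the library. Lyz2, the macrophage lysozyme, held 573, 424 and 406 TPM, and the complement genes C1qa, C1qb and C1qc held 133, 120.4 and 119.6 TPM, 133, 107 and 123 TPM and 49.95, 51.01 and 57.04 TPM. Of the macrophage list, 0 of 9 were over 2-fold, while 4 of 4 tested neutrophil genes and 2 of 4 mast cell genes were. The neutrophil list held Ltf (lactotransferrin), also a gland product, at 678, 389 and 113 TPM with a ratio of 6.54, and S100a8 at 106, 42.04 and 95.1 TPM. Granule genes of immature neutrophils were lower, with Ngp at 5.41, 13.6 and 4.89 TPM and Elane at 1, 0 and 2 counts. Mast cell markers had medians of 10.7, 9.57 and 6.89 TPM, and lymphocyte markers 0.4503, 0.304 and 0.304 TPM.

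Haemoglobin genes had almost no counts, with 1, 2 and 7 counts over 10 genes. The adult haemoglobin genes Hba-a1, Hba-a2, Hbb-bs and Hbb-bt were at 0 counts in all 3 libraries, although Alas2, the erythroid enzyme of haem synthesis, held 21.2, 13.2 and 16.6 TPM. Copies of these genes share sequence, with 27.7%, 10.7%, 46.8% and 41.7% of stretches in no other gene. How reads with several positions were treated is not given in the sources used here, and so nothing is read from these zeros. In the same way, Trpc2, the channel of vomeronasal neurons, was at 0 with 1.699% of its stretches in no other gene. Vmn2r1 and Vmn2r2 had at most 8 counts in any library.

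Markers of cells of other sites were of unequal level. Epidermal Krt10 held 17.1, 18.6 and 29.97 TPM and Lor, the cornified envelope protein, 3.13, 2.29 and 4.102 TPM. The melanosome gene Pmel held 3.04, 3.56 and 7.96 TPM, while Dct, Tyr, Tyrp1 and Mlana had at most 4 counts in any library. Of the 8 olfactory bulb and brain genes, 5 reached 1 TPM in all libraries. Olig2, a transcription factor of the oligodendrocyte lineage, held 118, 118 and 115 TPM, Gad2 6.46, 8.86 and 29.7 TPM, and Gad1, Th and Slc17a7 stood at 0.137, 0.411 and 0.347 TPM, 0.442, 0.133 and 0.1403 TPM and 0.8396, 1.16 and 0.677 TPM. The lists of adipocyte and vomeronasal markers had medians under 1 TPM.

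Sex-linked genes were read as a check of the libraries. Xist, the RNA that coats the inactive X chromosome of females, held 345, 289 and 984 TPM. Ddx3y, Eif2s3y, Kdm5d and Uty, on the Y chromosome, had 0 counts in replicates 1 and 2 and at most 3 counts each in replicate 3. Xist was highest in replicate 3, at a ratio of 3.21.

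Olfactory receptor genes were many and low. Of 1125 OR symbols, 1092 had a count in at least 1 library and 991 in all 3. Single libraries held 1040, 1041 and 1063 OR genes with a count. Together they took 0.130, 0.112 and 0.141% of all counts, a mean of 0.128 ± 0.0145% (SD, n = 3). The median OR gene stood at 0.961, 0.786 and 1.06 TPM, and 376 reached 1 TPM in all libraries.

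One OR stood above the rest. Olfr536 (chr7:140500849-140507396, minus strand) held 36.6, 48.8 and 41.5 TPM (450, 667 and 536 counts) and was first in all 3 libraries. The next 9 by mean level were Olfr513, Olfr722, Olfr1507, Olfr726, Olfr131, Olfr533, Olfr969, Olfr449 and Olfr1006. Olfr513 held 18.7, 18.2 and 11.1 TPM, Olfr722 18.05, 13.2 and 16.6 TPM and Olfr1507 (also called MOR28) 14.4, 17.01 and 16.4 TPM. These neighbours overlapped between libraries, and the order of ranks 2 to 4 changed with the library. The tenth, Olfr1006, held 11.5, 8.28 and 10.8 TPM. For Olfr726 84.2% of stretches occurred in no other gene, the lowest share among the 10.

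**Figure D5:**
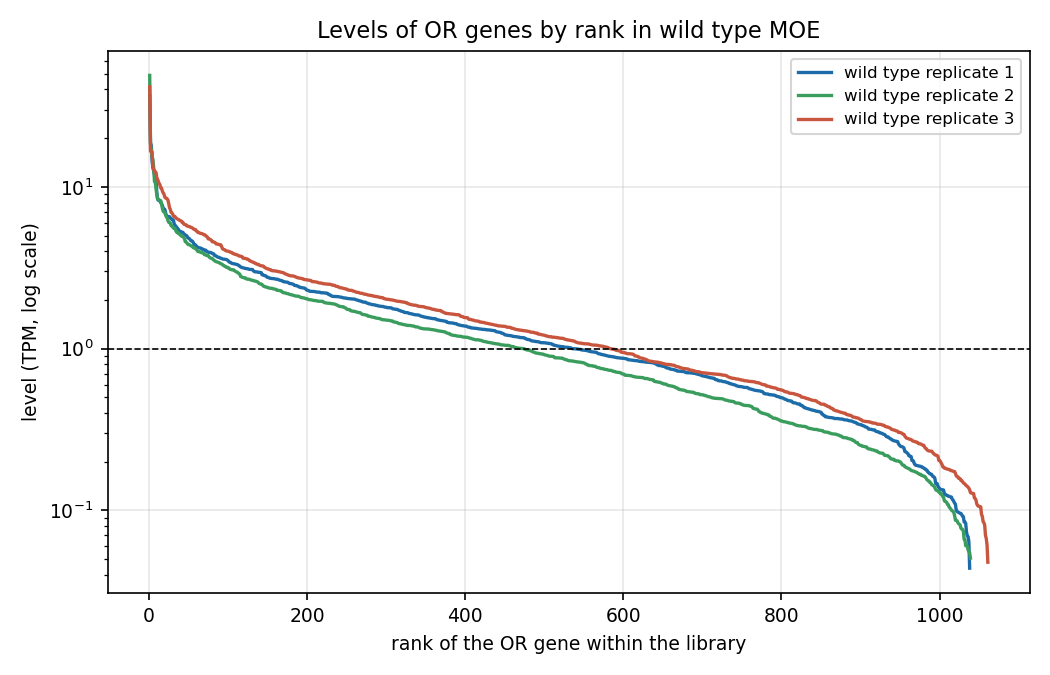
Level (TPM, log axis) of OR genes against their rank within each wild type library, with a dashed line at 1 TPM. After the first gene the 3 curves fall gradually, and the OR genes with a count number 1040, 1041 and 1063.

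The OR counts were spread over many genes. The 10 highest took 9.199, 11.8 and 10.7% of OR counts, and 188, 156 and 169 genes were needed for 50%. Class I ORs, the fish-like group clustered on chromosome 7, numbered 124 and took 9.14, 7.57 and 6.69% of OR counts. The other 990 with a known position were class II, with medians of 0.978, 0.817 and 1.11 TPM against 0.871, 0.645 and 0.698 TPM for class I. Class II was above class I in all 3 libraries.

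Counts of single ORs were small, and their spread has to be read with that. Of 488 tested ORs, 165 (33.8%) were over 2-fold between libraries, against 16.7% of all genes. Among all genes with a mean under 30 counts, however, 43.1% were over 2-fold, and among the 391 ORs in that range 36.3% were. For the median OR the variance between libraries was 1.56 times the counting variance at a median of 17.3 counts, and the mean over the 488 ORs was 2.76 times. The share of ORs over 2-fold lay below that of all genes in the same range of counts.

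Taar genes, the other receptor family of the MOE, held 94, 87 and 119 counts over 14 genes, or 31.1, 25.9 and 37.5 TPM. Taar6 was the highest by mean, though below Taar7e in replicate 2 (21, 11 and 32 counts, 7.04, 3.32 and 10.2 TPM), and 7 of the 14 reached 1 TPM in all libraries. Taar7e held 4.203, 4.08 and 4.004 TPM, but 46.1% of its stretches occurred in no other gene. This share ran up to 70.5% for Taar7d among the Taar7 genes and from 27.5% (Taar8c) to 49.1% (Taar8a) among the Taar8 genes, so single values in these groups are uncertain. Only 2 of the 14 passed the count filter, of which 1 was over 2-fold. Vomeronasal receptors of type 1 held 21, 26 and 71 counts over 211 genes and those of type 2 held 75, 95 and 112 counts over 127 genes.

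At the other end of the ranking stood the most even genes. With a mean of at least 100 counts, the lowest ratios belonged to Mylip (1.01), Lats1 (1.01), R3hdm4 (1.01), Fhad1 (1.01) and Faf1 (1.01). Lats1, a kinase of the Hippo pathway, stood at 139.8, 140.3 and 141 CPM, and Faf1, a factor of protein turnover, at 59.9, 59.6 and 60.03 CPM. These values describe 3 libraries and no further samples.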

How the data were processed

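RNA-seq of 3 wild type MOE libraries was used. Per the methods and labels, the authors deposited raw counts per gene from featureCounts (Subread version 1.6.2), after trimming with Trimmomatic (version 0.36) and alignment by HISAT2 (version 2.1.0) on mm10. They also deposited a normalised signal, in which each library's counts are divided by a single size factor (DESeq2 version 1.20.0 is named). Annotation, strand setting and treatment of reads with several positions are not given in the sources used here. The table had 24421 entries. Of these 4 entries, under symbols that a spreadsheet had turned into dates and that occurred more than once, were left out, and 0 columns were of no sample.

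From the counts, TPM was computed with the union of exons of GENCODE M21 (mm10) for 24003 genes (98.3% of symbols; 645 through a synonym). Genes without a length held 0.594 to 0.870% of counts. CPM used TMM scaling (edgeR version 4.0.16, R version 4.3.3), and dispersion an intercept-only fit over genes with at least 10 counts in at least 2 libraries. The ratio of highest to lowest library used a prior of 0.5 counts. The dispersion step was tested on simulated data. As there was 1 group of 3 libraries, no condition was tested, and a chi-square of counts over genes showed that no library was a copy of another (17.9 to 63.2 per degree of freedom). The share of 50-base stretches of a gene's transcripts found in no other gene was computed over GENCODE transcripts. Promoter windows were taken from RefSeq (GRCm38.p6).

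Genes named are the 25 highest by mean TPM, the 10 highest ORs, the 3 highest members of each of 29 symbol families (1 of them, mitochondrially encoded genes, not analysed here), members of 33 marker lists, and the 10 highest and 5 lowest ratios among genes with a mean of at least 100 counts. Others were chosen after their values were seen. A gene of the precursor list is not reported here. The members and lists were chosen with earlier results of these data known. Depth was 10449984 to 12220228 counts, and intervals and the floor of 3 counts cover counting error only. Alternatives were the length, scale, threshold, depth, scaling, filter, tool and leaving out each library.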

Additional observations from a re-analysis of the deposited data

How the results depend on the processing

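No paired analysis was possible because only 1 group was used and no result came from a test. Of 469 alternative values, 421 lay within the spread between libraries or within 1.5 times the main count, and 48 did not. On a CPM scale with no length, the 25 highest genes of each library took a mean of 7.31% in place of 12.2%. The 25 highest by mean on that scale shared 15 of 25 genes with the list given. As shares of TPM in place of counts, OR genes took 0.169%, ribosomal proteins 2.35%, collagens 1.13%, the odorant-binding, lipocalin and major urinary protein family 1.01% and BPI-fold genes 5.03%. The number of genes over 2-fold was 6290 with no filter and 1332 with a mean of at least 100 counts. Leaving out 1 library gave 266 to 1574 genes, fewest without replicate 3, and a coefficient of variation of 0.118 to 0.284. With 2 libraries the ratio has fewer values to span, so fewer genes pass. Depth limits single ORs, Taars and rare cell types most, since many stood under 10 counts.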

Other observations

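Several values belong to no list above. The 6 noncoding RNAs listed after the values of Meg3 and Xist were seen were all highest in replicate 3. Meg3, an imprinted noncoding RNA, held 45.4, 87.6 and 275 TPM, Malat1, a nuclear RNA of most cells, 204, 199.9 and 624 TPM, and Neat1, the scaffold of paraspeckles, 127, 129.5 and 244 TPM. Rian and Mirg, transcribed near Meg3, held 8.21, 17.9 and 37.1 TPM and 2.01, 5.21 and 9.28 TPM. The precursor of ribosomal RNA, Rn45s, took 0.118, 0.168 and 0.403% of counts in the same order, and long intergenic noncoding RNA genes 0.770, 0.905 and 1.38%. Zbtb16, a zinc finger transcription factor, stood at 2.28, 3.58 and 47.4 CPM and had the highest ratio over 3 libraries of the genes with a mean of at least 100 counts that were highest in replicate 3. Their part in the other differences of replicate 3 was not tested.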
